A study of Rattus norvegicus with 8 samples.

Results

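The immediate early AP-1 and EGR genes were examined in sorted peritoneal macrophages of rats that had received one of 2 kinds of carbon nanotube, the mesothelioma-inducing CNT-7 or the CNT-T that does not induce it. They were the 10 rows of the deposited table whose symbols are Fos, Fosb, Jun, Junb, Egr1, Egr2, Atf3, Ier2, Nr4a1 and Dusp1, out of 23487 rows in all. Both groups held 8-week-old female Wistar rats, which were given 2 mg of multi-walled carbon nanotubes into the peritoneal cavity and were sacrificed 15 days later. The 4 CNT-7 rats, numbered 3, 5, 10 and 11 in the labels, received the needle-like MWCNT-XNRI-7, and the 4 CNT-T rats, numbered 1, 2, 12 and 13, received the tangled MWCNT-CNT-T. Each library was taken, from the number in its title, as the RNA of a single rat's macrophages. The cells were washed out of the cavity and sorted by flow cytometry. Resident macrophages and those derived from blood monocytes were not separated. Untreated rats were not analysed here, so each value compares the particles with each other and not with the resting state. All 10 genes passed the filter on low counts and were among the 12124 genes tested.

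Immediate early genes are transcribed within minutes of a stimulus, without any need for new protein. Growth factors, microbial products, adhesion and physical handling of cells act on them through MAP kinases, the serum response factor SRF and the factor CREB. Fos and Jun proteins pair through leucine zippers to form the transcription factor AP-1. Egr proteins bind DNA with zinc fingers, and in the myeloid lineage they are known for their part in the maturation of monocytes into macrophages. Dusp1 belongs to the same early wave and ends it, because it encodes a phosphatase that switches MAP kinases off.

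Of the 10 genes, 7 rose and 1 fell in CNT-7 macrophages, and 2 did not pass the test. Among all 12124 genes, 27.9% passed at an adjusted p-value under 0.10, 13.9% as higher and 14.0% as lower in CNT-7 (quasi-likelihood test of edgeR, p-values adjusted by Benjamini-Hochberg). The genes that rose were Fos, Fosb, Jun, Junb, Atf3, Egr2 and Dusp1, by 1.91-fold to 5.55-fold. Egr1 was the gene that fell, to a level 3.62-fold lower. Ier2 and Nr4a1 were the 2 genes that did not pass. In such bulk samples, a change in the share of cells that express a gene and a change in the level per cell cannot be told apart. The values of both groups were fully apart in 8 of the 10 genes, beside 24.9% of all genes tested. These were the same 8 genes that passed, and both counts rest on the same values. The median log2 fold change (CNT-7 against CNT-T) was 1.23 over the 10 genes, beside 0.0083 over all genes. Levels are given as CPM, that is, counts scaled to a common library size after TMM normalization. CPM is not corrected for the length of a transcript and was therefore compared between rats and not between genes.

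**Figure D1:**
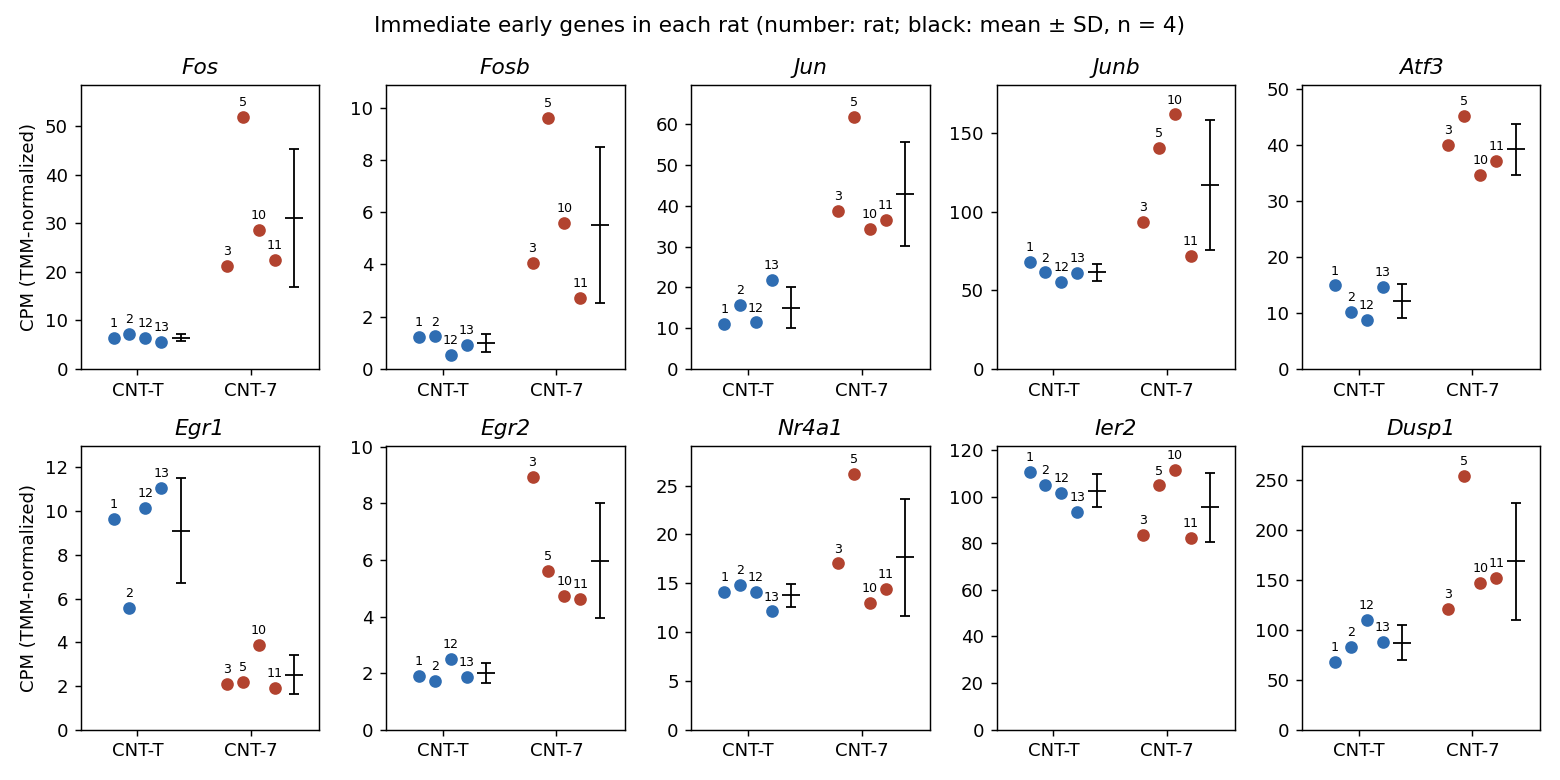
CPM (vertical axes, from 0) of the 10 immediate early genes in each rat, with CNT-T in blue and CNT-7 in red, the rat number above each point, and the mean ± SD of 4 rats in black. The groups are apart in 8 panels, with Egr1 alone lower in CNT-7, and they overlap for Nr4a1 and Ier2.

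The Fos proteins cannot pair with each other and need a Jun protein as a partner. Fos (ENSRNOG00000008015) was present at 21.2, 51.8, 28.6 and 22.5 CPM in CNT-7 rats 3, 5, 10 and 11. In CNT-T rats 1, 2, 12 and 13 it was present at 6.46, 7.24, 6.36 and 5.51 CPM. Rat 5 had the highest level and the CNT-T rats lay close together, so that the lowest CNT-7 rat was still well above the highest CNT-T rat. The mean of the CNT-7 group was 31.0 ± 14.2 CPM and that of the CNT-T group 6.39 ± 0.707 CPM (SD, n = 4 each). This was a log2 fold change of 2.28 with a standard error of 0.28 (edgeR's quasi-likelihood test, adjusted p = 0.00078).

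Fosb (ENSRNOG00000046667), a close relative of Fos, was the gene of the 10 with the highest fold change and the fewest reads. It had 4.07, 9.61, 5.60 and 2.71 CPM in CNT-7 rats 3, 5, 10 and 11, and 1.24, 1.24, 0.527 and 0.931 CPM in CNT-T rats 1, 2, 12 and 13. As with Fos, rat 5 was the highest, and rat 11 was the lowest CNT-7 rat. Counts were between 75 and 287 with CNT-7 and between 16 and 42 with CNT-T. The log2 fold change was 2.47 with a standard error of 0.42 (edgeR, adjusted p = 0.0035). Fosb counts per Fos count ranged from 0.121 to 0.196 in CNT-7 rats and from 0.0829 to 0.192 in CNT-T rats, so that this ratio overlapped between the groups.

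Jun (ENSRNOG00000026293) encodes c-Jun, the partner that forms the most active AP-1 with Fos. It had 38.8, 61.9, 34.4 and 36.6 CPM in CNT-7 rats 3, 5, 10 and 11, and 11.1, 15.8, 11.4 and 21.9 CPM in CNT-T rats 1, 2, 12 and 13. CNT-7 rat 5 stood above the other 3 CNT-7 rats, and CNT-T rat 13 was the highest of its group. The log2 fold change was 1.51 with a standard error of 0.25 (edgeR, adjusted p = 0.0034).

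Junb (ENSRNOG00000042838) encodes a Jun protein that activates fewer targets than c-Jun and can counteract it. It had 93.7, 140.5, 161.8 and 71.6 CPM in CNT-7 rats 3, 5, 10 and 11. The CNT-T rats were between 55.1 and 67.9 CPM. The groups were separated by a narrow gap, between CNT-7 rat 11 and CNT-T rat 1. The log2 fold change was 0.93 with a standard error of 0.22 (edgeR, adjusted p = 0.016). Junb was the one gene of the 10 whose call was lost in a fit with fewer rats, with an adjusted p = 0.1002 from edgeR when CNT-7 rat 5 and CNT-T rat 13 were both left out.

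Atf3 (ENSRNOG00000003745) encodes a leucine zipper protein that pairs with Jun proteins and is known to restrain inflammatory genes in macrophages. It had 39.9, 45.1, 34.7 and 37.1 CPM in CNT-7 rats 3, 5, 10 and 11, and 14.9, 10.2, 8.80 and 14.6 CPM in CNT-T rats 1, 2, 12 and 13. The 4 CNT-7 rats were close to each other, and each was more than 2-fold above every CNT-T rat. Atf3 had the lowest adjusted p-value of the 10 genes, 0.00037 by edgeR, with a log2 fold change of 1.69 and a standard error of 0.17.

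Related genes were read from a list of 18, of which 17 were tested. It held AP-1 partners, relatives of the Egr and Nr4a genes, and corepressors. Of the 17, 6 rose (Jund, Fosl2, Batf3, Mafk, Egr3 and Nr4a3) and 1 fell (Maff). That is, 41.2% were significant beside 27.9% of all genes, and the median log2 fold change of the 17 was 0.28. Jund encodes the Jun protein that is usually present in resting cells. It had 107 to 156 CPM in the CNT-7 rats and 42.2 to 67.6 CPM in the CNT-T rats (log2 fold change 1.41, standard error 0.16, edgeR's adjusted p = 0.00065). All of the Jun family thus rose. Of the remaining Fos family, Fosl2 rose from 6.71 ± 1.47 to 12.3 ± 1.91 CPM (SD, n = 4 each), whereas Fosl1 did not pass. Fosl1 had a log2 fold change of -0.79 with a standard error of 0.60, and its highest level, 2.47 CPM, was that of CNT-T rat 13. Without that rat its log2 fold change was 0.060.

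Batf3 and Mafk, which encode small leucine zipper proteins, also rose, with log2 fold changes of 0.78 and 0.36. Batf3 was no longer significant without CNT-7 rat 3 or one of CNT-T rats 2 and 12, with edgeR's adjusted p-values between 0.103 and 0.122. Maff was the gene that fell, with a log2 fold change of -0.89, overlap between the groups and an adjusted p = 0.073 from edgeR. It lost significance without CNT-7 rat 3, 5 or 11 or CNT-T rat 1 or 2, with an adjusted p-value of up to 0.195. The other genes of the list that the test covered were Jdp2, Batf, Batf2, Atf2, Atf7, Mafg, Nr4a2, Nab1 and Nab2, and none of them passed.

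**Figure D2:**
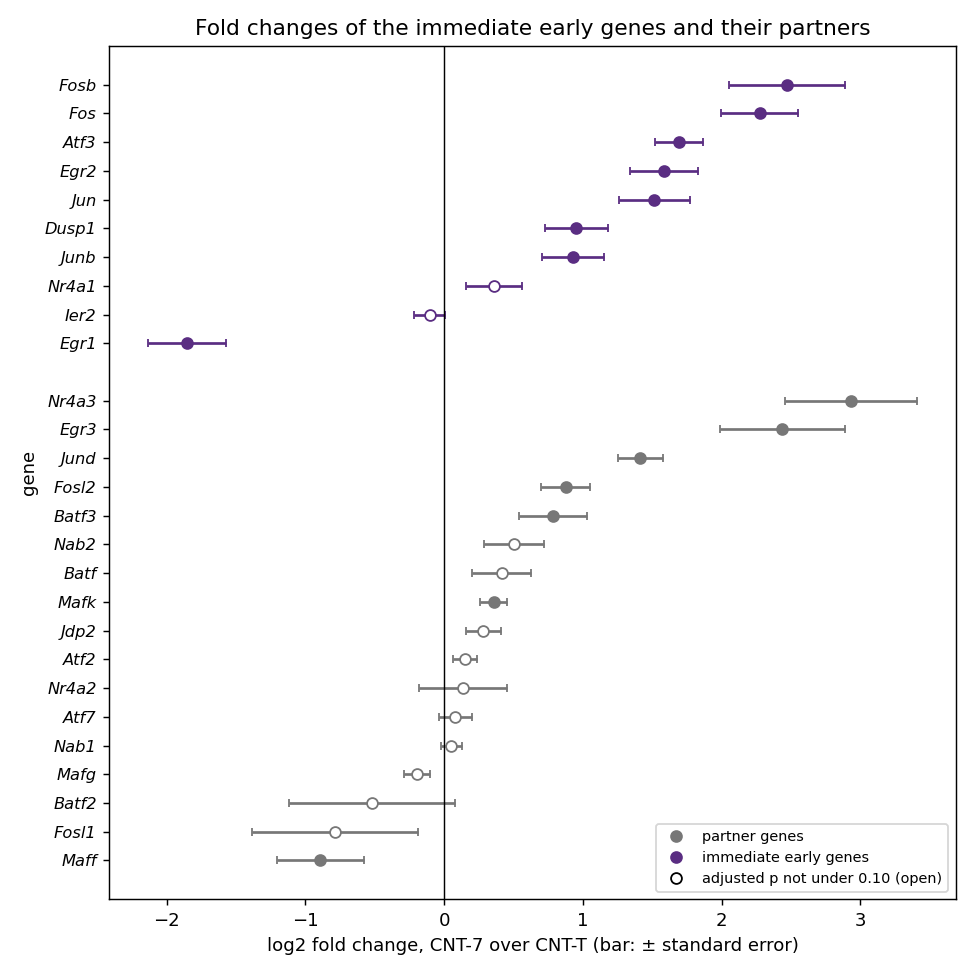
Log2 fold change, CNT-7 against CNT-T (horizontal axis, ± standard error) for the 10 immediate early genes in purple and 17 partner genes in grey, open where the adjusted p-value was not under 0.10. Fosb, Fos, Atf3, Egr2 and Jun lie above 1.5 on the log2 scale, Egr1 lies at -1.86, and Nr4a3, Egr3 and Jund are the highest of the partners.

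The Egr genes did not move together. Egr1 (ENSRNOG00000019422) encodes the best known member of the family, a zinc finger factor that is induced with Fos in most cells. It had 2.10, 2.18, 3.86 and 1.92 CPM in CNT-7 rats 3, 5, 10 and 11, and 9.65, 5.59, 10.2 and 11.1 CPM in CNT-T rats 1, 2, 12 and 13. The lowest CNT-T rat, rat 2, was above the highest CNT-7 rat, rat 10. Egr1 thus had a log2 fold change of -1.86 with a standard error of 0.28 (edgeR, adjusted p = 0.0021). Its counts were low in both groups, 53 to 107 with CNT-7 and 189 to 309 with CNT-T.

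Egr2 (ENSRNOG00000000640), which encodes Krox20, rose where Egr1 fell. It had 8.93, 5.63, 4.73 and 4.63 CPM in CNT-7 rats 3, 5, 10 and 11, and 1.89, 1.71, 2.51 and 1.86 CPM in CNT-T rats 1, 2, 12 and 13. CNT-7 rat 3 was the highest, and the other 3 CNT-7 rats lay close to each other. The log2 fold change was 1.59 with a standard error of 0.25 (edgeR, adjusted p = 0.0024). Counts of Egr2 were also low, 128 to 272 with CNT-7 and 52 to 76 with CNT-T.

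Within each rat, the counts of both genes can be set against each other without any normalization between libraries. There were 4.25, 2.58, 1.22 and 2.42 Egr2 counts per Egr1 count in CNT-7 rats 3, 5, 10 and 11. In CNT-T rats 1, 2, 12 and 13 there were 0.196, 0.307, 0.247 and 0.168. Egr2 thus had more reads than Egr1 in every CNT-7 rat and fewer in every CNT-T rat. The ratio of Fos to Egr1 was between 7.40 and 23.8 with CNT-7 and between 0.498 and 1.30 with CNT-T. These ratios compare reads that were not corrected for transcript length, and only their difference between rats is informative.

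Egr3 followed Egr2, from 0.202 ± 0.131 CPM with CNT-T to 1.09 ± 0.307 CPM with CNT-7 (SD, n = 4 each). Its log2 fold change was 2.44 with a standard error of 0.45 (edgeR, adjusted p = 0.0053), and it rests on 3 to 10 counts in each CNT-T rat and 20 to 44 in each CNT-7 rat. Egr4 had 0 counts in every rat. Nab1 and Nab2 encode the corepressors that bind Egr proteins. Nab1 had a log2 fold change of 0.052 (standard error 0.077) and Nab2 of 0.51 (standard error 0.22), and neither passed. Without CNT-T rat 13, Nab2 was significantly higher (edgeR's adjusted p = 0.072).

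**Figure D3:**
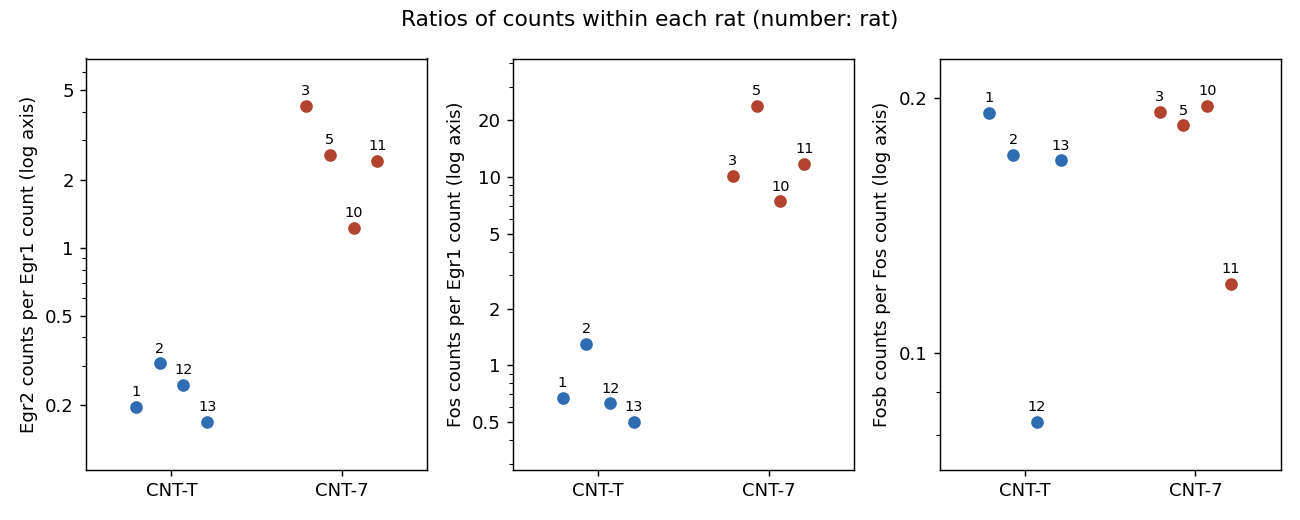
Ratios of estimated counts within each rat (log axes), with CNT-T in blue, CNT-7 in red and the rat number above each point. All CNT-7 rats lie above 1 for Egr2 per Egr1 and all CNT-T rats below 0.31, the groups are also apart for Fos per Egr1, and they overlap for Fosb per Fos.

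The promoters of Egr1 and Egr2 are shown because these genes moved in opposite directions while sharing a site. RefSeq promoter sequences (build GRCr8) were matched by symbol for 7 of the 10 genes, namely Fosb, Junb, Egr1, Egr2, Ier2, Nr4a1 and Dusp1. The 130 bases before the transcription start are printed from 5′ to 3′ on the strand of the gene. Capitals mark a CArG box, the core of the serum response element that SRF binds, in Egr1 (chr18:26736948-26737077, plus strand) and Egr2 (chr20:21054442-21054571, minus strand).
Egr1: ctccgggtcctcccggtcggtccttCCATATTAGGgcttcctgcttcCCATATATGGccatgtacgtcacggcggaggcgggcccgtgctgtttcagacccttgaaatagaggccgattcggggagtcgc
Egr2: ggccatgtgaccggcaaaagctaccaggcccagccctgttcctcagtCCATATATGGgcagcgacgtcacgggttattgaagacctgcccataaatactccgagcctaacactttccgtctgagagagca
One CArG box lay at positions -83 to -74 in both promoters, with the same letters, and Egr1 held another at -105 to -96. A CArG box was present in 1.64% of the 33469 RefSeq promoter windows of 300 bases (250 before and 50 after the start), searched on both strands. None of the other 5 windows held one.

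The cyclic AMP response element TGACGTCA, to which CREB and Atf proteins bind, was present in 2 of the 7 windows and in 1.83% of all windows. It is marked in capitals in Dusp1 (chr10:17184723-17184852, plus strand), which rose, and in Ier2 (chr19:40399243-40399372, plus strand), which did not pass the test.
Dusp1: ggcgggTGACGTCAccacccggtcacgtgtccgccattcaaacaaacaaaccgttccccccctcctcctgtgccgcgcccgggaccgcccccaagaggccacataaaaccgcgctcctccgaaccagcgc
Ier2: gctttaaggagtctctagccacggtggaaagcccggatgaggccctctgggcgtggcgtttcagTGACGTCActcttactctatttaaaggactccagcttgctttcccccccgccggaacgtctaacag
The AP-1 sites TGACTCA and TGAGTCA were in 0 of the 7 windows and in 4.63% of all windows. An Egr site, GCGTGGGCG or GCGGGGGCG, was in the window of Nr4a1 and in 3.20% of all windows. TATAAA was in those of Fosb and Junb and in 14.2% of all windows. A match describes the letters of the window, and binding was not measured.

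Dusp1 (ENSRNOG00000003977) encodes the nuclear phosphatase MKP-1, which removes phosphate from p38, JNK and ERK. It had 121, 254, 147 and 152 CPM in CNT-7 rats 3, 5, 10 and 11, and 68.1, 82.8, 109.5 and 87.6 CPM in CNT-T rats 1, 2, 12 and 13. CNT-7 rat 5 was again the highest, and the gap between the groups, from CNT-T rat 12 to CNT-7 rat 3, was small. The log2 fold change was 0.95 with a standard error of 0.23 (edgeR, adjusted p = 0.016).

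Ier2 (ENSRNOG00000054344) encodes a nuclear protein of the early response. It had 83.5, 104.8, 111 and 82.1 CPM in CNT-7 rats 3, 5, 10 and 11, and 110.5, 105, 101.5 and 93.3 CPM in CNT-T rats 1, 2, 12 and 13. The range of the CNT-T rats lay within that of the CNT-7 rats. CNT-7 rats 3 and 11 were below every CNT-T rat, and rat 10 was slightly above them all. Its log2 fold change was -0.10 with a standard error of 0.11 (edgeR, adjusted p = 0.56).

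Nr4a1 (ENSRNOG00000007607) encodes the orphan nuclear receptor Nur77, which is also needed for a subset of blood monocytes. It had 17.0, 26.2, 12.96 and 14.4 CPM in CNT-7 rats 3, 5, 10 and 11, and 14.1, 14.8, 14.1 and 12.1 CPM in CNT-T rats 1, 2, 12 and 13. CNT-7 rats 3 and 5 were above all CNT-T rats, and rats 10 and 11 were within their range. The log2 fold change was 0.36 with a standard error of 0.20 (edgeR, adjusted p = 0.25). Of its relatives, Nr4a3 rose and Nr4a2 did not pass. Nr4a3 had 20 to 59 counts in each CNT-7 rat and 2 to 10 in each CNT-T rat (log2 fold change 2.93, standard error 0.48, edgeR's adjusted p = 0.0029). Nr4a2 had 19 to 50 and 24 to 37 counts (log2 fold change 0.14, standard error 0.32).

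The 10 genes varied more between rats of one group than most genes did. Their SD of log2 CPM within groups was above the median of all genes tested, 0.172, in all 10, and it was 0.657 for Fosb, 0.445 for Egr1 and 0.431 for Fos. Ier2 was close to the median at 0.174. For 8 of the 10 the spread was wider in the CNT-7 rats, with Jun and Atf3 as the exceptions. For Egr1, counted among the 8, it was nearly equal, at 0.448 with CNT-7 and 0.443 with CNT-T. For Fos the SD of log2 CPM was 0.588 with CNT-7 and 0.16 with CNT-T. Over all genes the median of this SD was 0.161 in CNT-7 and 0.159 in CNT-T. CNT-7 rat 5 was the highest of its group in 6 of the 10 genes, and CNT-7 rat 11 the lowest in 5. Averaged over the 10 genes, log2 CPM relative to the mean of all 8 rats was 0.35, 0.88, 0.50 and 0.14 in CNT-7 rats 3, 5, 10 and 11. It was -0.43, -0.50, -0.54 and -0.41 in CNT-T rats 1, 2, 12 and 13. Without CNT-7 rat 5 the difference between the group means was 0.80 in place of 0.94, and the same 7 genes rose and Egr1 fell in that fit. Among all 12229 genes tested in that fit, 21.2% were significant.

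The genes whose level followed this average most closely were sought among 9471 other genes with a mean of at least 5 CPM, over the 8 rats after the mean of each group had been subtracted. They were Strbp (Pearson's r = 0.985), P2rx4 (0.959), Smg5 (0.952), Pde2a (0.948) and Aldh3a2 (0.948). As the best of 9471 genes over 8 rats, of which CNT-7 rat 5 lay furthest from its group, these values are a description. Of the 5 genes, P2rx4 and Aldh3a2 rose in CNT-7, with log2 fold changes of 0.53 and 0.26, and the other 3 did not pass. Without CNT-7 rat 5 these calls changed, and edgeR's adjusted p-value was 0.17 for P2rx4, 0.12 for Aldh3a2 and 0.0049 for Pde2a, then lower in CNT-7 with a log2 fold change of -0.71. P2rx4 was also lost without CNT-7 rat 10 or CNT-T rat 1, 2 or 12, and Aldh3a2 without CNT-T rat 2 or 12.

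Other immediate early and early response genes were read from a list of 50, of which 45 were tested. Of these, 19 rose, 6 fell and 20 did not pass, that is, 55.6% were significant beside 27.9% of all genes, and their median log2 fold change was 0.35. The 5 with the lowest adjusted p-values among those that rose were Ier5, Csrnp1, Tob1, Socs3 and Dusp5. Ier5 had 59.2 to 69.5 CPM in the CNT-7 rats and 24.9 to 30.7 CPM in the CNT-T rats (log2 fold change 1.22, standard error 0.086, edgeR's adjusted p = 7.4e-05). Csrnp1, a nuclear protein induced by axin, and Tob1, which restrains the cell cycle, had log2 fold changes of 2.03 and 1.68. Socs3, the feedback inhibitor of IL-6 signalling, had 19.8 to 42.0 CPM with CNT-7 and 1.61 to 5.41 CPM with CNT-T (log2 fold change 2.999, standard error 0.36). Zfp36, which encodes the RNA-destabilizing protein tristetraprolin, and Klf4 also rose, with log2 fold changes of 0.36 and 0.49, Zfp36 with overlap between the groups. Klf2 (0.32) and Ier3 (-0.17) did not pass.

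The 6 genes of this list that fell were Rgs2, Dusp6, Id2, Zfp36l2, Cxcl2 and Sgk1. Rgs2, a brake on signalling by G proteins, had 12.3 to 15.4 CPM in the CNT-7 rats and 33.1 to 37.3 CPM in the CNT-T rats (log2 fold change -1.32, standard error 0.090, edgeR's adjusted p = 7.0e-05). Id2 and Zfp36l2 had log2 fold changes of -0.74 and -0.36. For Cxcl2 and Sgk1 the groups overlapped, and edgeR's adjusted p-values were 0.074 and 0.092. CNT-T rat 13 had 68.9 CPM of Cxcl2 and the other CNT-T rats 14.9 to 31.4 CPM, and without it the log2 fold change was -0.74 in place of -1.40, with edgeR's adjusted p = 0.19. Significance was also lost without CNT-7 rat 3, 10 or 11 or CNT-T rat 2. Sgk1 lost significance in 7 of the 8 fits that left out one rat, all but the one without CNT-7 rat 11, with an adjusted p-value of up to 0.21.

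The phosphatases of the Dusp family did not share a direction. Dusp6, which acts on ERK alone and is itself a target of ERK signalling, had 57.0 to 82.5 CPM with CNT-7 and 127 to 184 CPM with CNT-T. Its log2 fold change was -1.09 with a standard error of 0.15 (edgeR, adjusted p = 0.0015). Dusp5, another phosphatase of ERK, rose from 3.71 ± 0.212 to 10.02 ± 2.57 CPM (SD, n = 4 each), with a log2 fold change of 1.43 and a standard error of 0.19.

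Upstream of these genes, 41 rows for MAP kinases, their feedback inhibitors, SRF and CREB were tested, with Map2k3 counted once for each of its rows. Of these, 5 rose and 3 fell, that is, 19.5% were significant beside 27.9% of all genes, with a median log2 fold change of 0.042. Those that rose included Mapkapk3 (0.76), Crem (0.73), Map3k8 (0.54) and Rps6ka1 (0.27), the last of them not without CNT-7 rat 5 (edgeR's adjusted p = 0.12). Spred1 and Spred2, which inhibit signalling to ERK, fell with log2 fold changes of -0.65 and -0.71. Spred1 was between 12.7 and 16.7 CPM with CNT-7 and between 20.2 and 24.4 CPM with CNT-T. Mapk3, which encodes ERK1, had a log2 fold change of -0.32. Srf itself did not pass, with 49.7 ± 1.47 CPM with CNT-7 and 46.8 ± 3.18 CPM with CNT-T (SD, n = 4 each). These are levels of transcripts, and phosphorylation, by which these kinases act, was not measured.

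**Figure D4:**
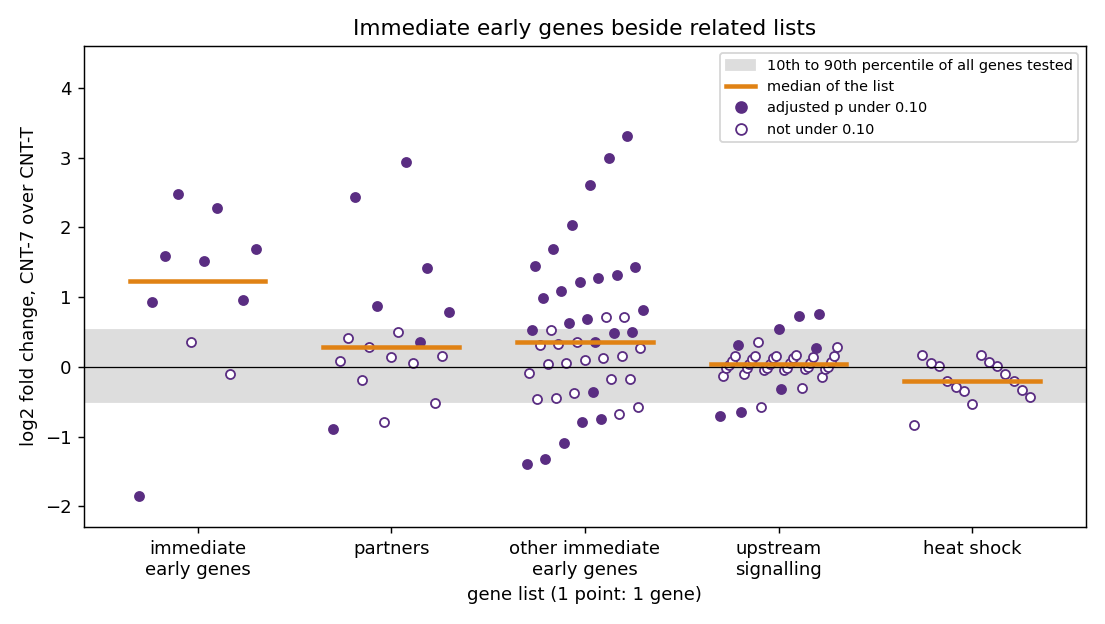
Log2 fold change, CNT-7 against CNT-T (vertical axis) for each gene tested in 5 lists, filled where the adjusted p-value was under 0.10, with the median of each list in orange and the 10th to 90th percentile of all genes in grey (-0.51 to 0.53). The median is 1.23 for the 10 immediate early genes, 0.28 for the partners, 0.35 for the other immediate early genes, 0.042 for upstream signalling and -0.20 for heat shock.

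Immediate early genes and heat shock genes both respond when cells are removed from tissue and sorted, and heat shock genes were therefore examined beside them. Of 15 heat shock and stress genes tested, 0 passed in edgeR's quasi-likelihood test at an adjusted p-value under 0.10, 2 had an unadjusted p-value under 0.05, and 3 were called by DESeq2 (Hspd1, Hspa5 and Hsp90ab1, all lower in CNT-7). The median log2 fold change was -0.20. In edgeR fits without one rat, Hspa5 was lower without CNT-7 rat 10 or CNT-T rat 12, and Hspd1 without CNT-7 rat 11 or CNT-T rat 1. CNT-T rat 13 stood apart in this list, with 448 CPM of Hspa1b and 1256 CPM of Hmox1. The other CNT-T rats had 7.32 to 59.6 CPM of Hspa1b and 77.7 to 166 CPM of Hmox1, and the CNT-7 rats 47.5 to 183 CPM and 155 to 779 CPM. The same CNT-T rat had the lowest Fos level of all 8 rats, 5.51 CPM, but the highest Jun level of its group. Without it, Hmox1 was higher in CNT-7 (log2 fold change 1.74, edgeR's adjusted p = 0.045) together with Dnajb4. In the CNT-7 group, rat 5 was the highest for Hspa1b and also for Fos, Fosb and Jun. With CNT-7 rat 5 and CNT-T rat 13 both left out, 7 of the 10 immediate early genes passed, beside 18.6% of the 12153 genes tested in that fit, and the log2 fold change was 1.84 for Fos and -1.70 for Egr1. The part of handling in the differences was not tested.

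**Figure D5:**
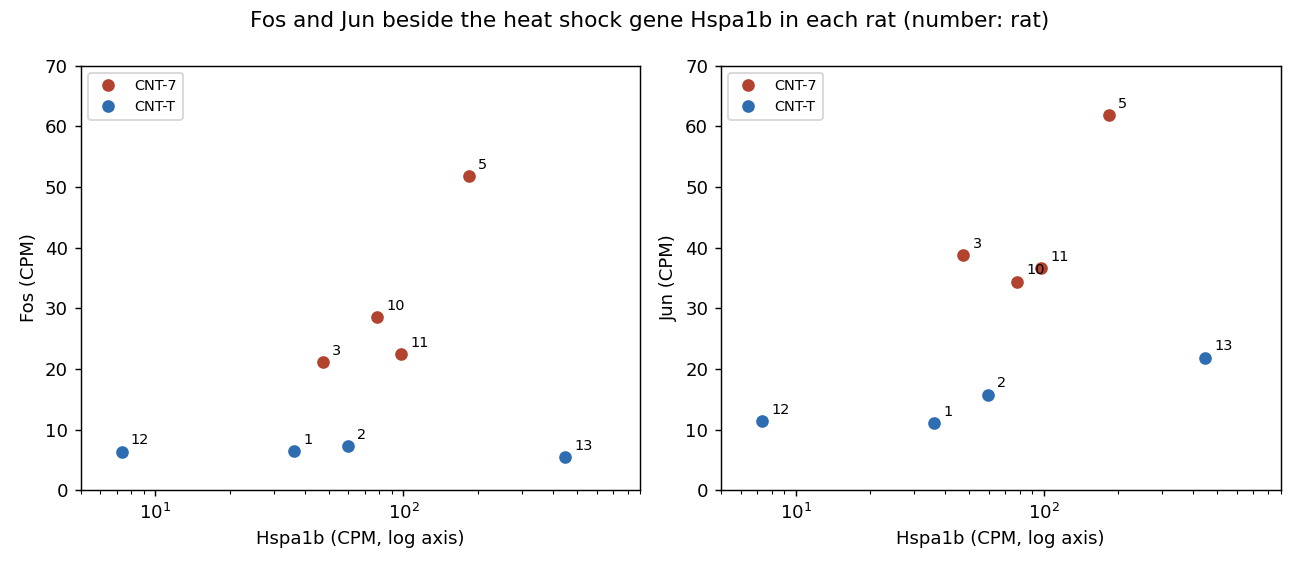
CPM of Fos (left) and Jun (right) against CPM of the heat shock gene Hspa1b (log axis) in each rat, with CNT-T in blue, CNT-7 in red and the rat number beside each point. CNT-T rat 13 has the highest Hspa1b level, 448 CPM, with 5.51 CPM of Fos and 21.9 CPM of Jun, and CNT-7 rat 5 is the highest for Fos and Jun.

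Total counts were between 27394995 and 30215063 per CNT-7 rat and between 27195157 and 33732981 per CNT-T rat, and 3 counts corresponded to at most 0.109 CPM, a floor for counting error only. Macrophage markers (Cd68, Csf1r, Adgre1, Lyz2, Mertk, Fcgr1a, Mrc1 and Cd14) summed to 15248 to 22327 CPM with CNT-7 and 23730 to 33873 CPM with CNT-T. Most of this was Lyz2, with means of 17596 CPM with CNT-7 and 24362 CPM with CNT-T. The other macrophage markers had at least 52.4 CPM in every rat. Of the 8 macrophage markers, Cd14 rose and Csf1r, Fcgr1a, Cd68 and Adgre1 fell. The 9 neutrophil markers summed to 33.9 to 63.0 CPM and 26.2 to 68.5 CPM, most of it Csf3r. Of the 5 tested, 1 (S100a8) was lower in CNT-7, and Mpo was at 0 counts in every rat. The 5 dendritic cell markers summed to 5.61 to 11.6 CPM and 4.37 to 8.38 CPM. Of the 3 tested, Ccr7 and Clec9a were higher in CNT-7, with at most 3.15 CPM and 1.98 CPM. The 4 endothelial markers summed to 167 to 183 CPM and 163 to 200.05 CPM, most of it Tie1, with Tek lower in CNT-7. Markers of B cells, T or NK cells, mast cells, eosinophils, mesothelial cells, fibroblasts and platelets summed to at most 9.48 CPM in any rat, and their 3 genes that could be tested did not pass. Epx, Prg3, Gzmb, Klrb1, Wt1, Upk3b, Gp9 and Gp1bb among them were at 0 counts in every rat, whereas the other genes of these lists had reads. Below the filter, Cd3e had 0.290 to 2.11 CPM in the CNT-7 rats and 0.0358 to 0.231 CPM in the CNT-T rats. Cd5, Col1a1, Dcn and the endothelial marker Kdr were at 0 counts in every CNT-T rat and present in every CNT-7 rat. Kdr had at most 0.362 CPM. The dendritic cell marker Xcr1 had 0.0722 to 0.201 CPM with CNT-7 and 0 to 0.0358 CPM with CNT-T. CNT-7 rat 5, the highest rat in 6 of the 10 immediate early genes, stood apart in the markers of T or NK cells, with 9.48 CPM in sum beside 3.07 to 4.17 CPM in the other rats. It also stood apart in those of B cells, with 3.12 CPM beside 0.148 to 0.489 CPM, and had the highest sum of dendritic cell markers. CNT-7 rat 3, the highest for Egr2, had 9.33 CPM of eosinophil markers beside at most 0.670 CPM in the other rats. Most of this sum was a single gene, Ccr3, at 8.74 CPM. The part of other cells in the differences was not tested.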

How the data were processed

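RNA was sequenced from sorted peritoneal macrophages of 4 CNT-7 and 4 CNT-T rats, grouped by the particle named in the sample labels and numbered as in the sample titles. The authors used the ARMOR workflow, with FastQC, Salmon against Ensembl rat cDNA (Rnor_6.0; Salmon's version is not given in the sources used here) and import by tximeta. The deposited values are estimated counts per gene, not normalized and already whole, so rounding changed none. Estimated counts divide reads between similar transcripts, and 83 rows repeat an earlier symbol (of the listed genes, Map2k3, both rows of which were used).

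All rows were fitted with edgeR 4.0.16 (R 4.3.3): TMM normalization, filterByExpr (minimum count 10, minimum total 15), quasi-likelihood test, Benjamini-Hochberg adjustment over 12124 genes, and the study's threshold of 0.10. Standard errors were obtained by dividing each log2 fold change by the root of its F statistic. Log2 CPM used a prior count of 2. Alternatives were DESeq2 1.42.0, upper-quartile normalization, other filters and thresholds, the range of the rat numbers (1 to 5 against 10 to 13) as a term, and fits without one rat. Scripts were tested on simulated counts. Each library was taken as a single rat from the number in its title, so p-values set the group difference against the spread between rats.

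The genes and lists were chosen with earlier results of these data known, and no list was tested as a set. Text names all 10 genes, up to 8 significant genes per list and direction (otherwise the 5 with the lowest adjusted p-value), 15 further genes fixed by name and the 5 genes most like the average. Listed genes that did not pass the filter or did not match by symbol were not analysed here, and 1 significant upstream gene is not reported here.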

Additional observations from a re-analysis of the deposited data

Results flagged for a closer look

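For 6 of the 104 sets of 4 rats examined, the highest or lowest rat was separated from its neighbour by a share of the total range above Dixon's critical value for 4 samples. Chance gives about 1 in 20, here 5.2, and no pattern is drawn from these rats. Among the immediate early genes, Jun was highest in CNT-7 rat 5 with 61.9 CPM against 34.4 to 38.8 CPM, which gave a ratio of 0.842. Egr1 was highest in CNT-7 rat 10 with 3.86 CPM against 1.92 to 2.18 CPM (ratio 0.867). Nab1 was highest in CNT-T rat 13 with 60.6 CPM against 49.3 to 51.3 CPM (ratio 0.8295). Nab2 was highest in CNT-7 rat 3 with 7.92 CPM against 4.71 to 5.06 CPM (ratio 0.890). Srf was lowest in CNT-7 rat 10 with 47.5 CPM against 50.3 to 50.6 CPM (ratio 0.913). Tob1 was highest in CNT-7 rat 5 with 34.4 CPM against 20.7 to 21.7 CPM (ratio 0.923).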

How the results depend on the processing

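Of 160 values, the 10 immediate early genes each under 16 alternatives, 157 kept their direction and their side of the threshold and none changed sign. The exceptions were Junb and Dusp1 when at least a 2-fold change was required, and Junb without CNT-7 rat 5 and CNT-T rat 13, an alternative chosen after the data were seen. The threshold of 0.05 and the 2-fold requirement reused the main fit, so neither could change a sign or let Ier2 or Nr4a1 pass. Between 6 and 8 of the 10 genes were significant in every alternative, beside 8.30% to 30.0% of all genes tested. There were 8 whenever one rat was left out, beside 21.0% to 28.7% of all genes tested. The 2-fold requirement left 1006 of 3383 genes, 3 partner genes, 14 of the other immediate early genes and 0 upstream genes. Without CNT-7 rat 5 and CNT-T rat 13, 5 upstream genes and 1 heat shock gene were significant, and DESeq2 gave 3 heat shock genes. When one rat was left out in turn, there were 2578 to 3515 significant genes in all, 6 to 8 partner genes, 22 to 26 other immediate early genes, 8 or 9 upstream genes and 0 to 2 heat shock genes. The average over the 10 genes differed by 0.80 to 1.05 between groups without one rat, and by 1.25 when Egr1, the gene that fell, was left out. Some log2 fold changes that were not significant changed sign, namely those of Fosl1 (-1.15 to 0.060 without one rat, positive without CNT-T rat 13, and 0.078 without that rat and CNT-7 rat 5), Nr4a2 (-0.16 to 0.30, negative without CNT-7 rat 5, and -0.22 without that rat and CNT-T rat 13), Ier3 (-0.47 to 0.031, positive without CNT-7 rat 3) and Smg5 (-0.047 to 0.019, positive without CNT-7 rat 3 or 11). The cause was not tested. No paired analysis was possible because no rat number occurs in both groups. Counts limit the precision of Fosb, Egr3 and Nr4a3, with 16 to 42, 3 to 10 and 2 to 10 counts in the CNT-T rats, and of Gem and Il1b, with 0 to 5 and 4 to 13.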

Other observations

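The other 12 genes of the list of immediate early and early response genes that rose in CNT-7 were chosen for this paragraph after their values were seen. Those with the highest log2 fold changes were Gem (3.30), Il1b (2.61), Dusp2 (1.44), Gadd45g (1.32) and Ccn1 (1.27). Gem, which encodes a small GTPase, and Il1b, which encodes the cytokine IL-1β, had mean levels of 0.0987 and 0.230 CPM in the CNT-T rats and of 1.001 and 1.45 CPM in the CNT-7 rats. Tnfaip3, which encodes the ubiquitin-editing protein A20, rose from 8.48 ± 1.04 to 17.9 ± 3.01 CPM, and Nfkbiz rose from 22.7 ± 2.17 to 39.8 ± 7.51 CPM (SD, n = 4 each). Nfkbia, which encodes an inhibitor of NF-κB, had a log2 fold change of 0.044 and did not pass. Rhob, Btg2, Klf6, Bhlhe40 and Plk3 had log2 fold changes between 0.51 and 0.98, and among these 12 genes the groups overlapped for Dusp2 and Plk3.

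Of the inflammatory mediators in the same list, Tnf (log2 fold change -0.46), Cxcl1 (-0.58), Ccl3 (0.71) and Ccl4 (0.32) did not pass. Ptgs2, the inducible cyclooxygenase, was below the filter, with 0 counts in every CNT-T rat and 0 to 25 in the CNT-7 rats, of which rat 3 had 25.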
